A study of Mus musculus with 2 samples.

Results

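PD-1 positive CD8 T cells of the tumour region were selected on their UMI counts, where a UMI is the molecular tag of 1 captured mRNA. A member had at least 2 UMIs over Cd3d, Cd3e and Cd3g, at least 1 over Cd8a and Cd8b1, and at least 1 of Pdcd1. It had no UMI of Cd4, Foxp3, Cd79a or Csf1r, and at most 2 over the interferon-induced genes Ifit1, Ifit3, Ifit3b and Rsad2. The rule found 323 of 6835 cells in the control library and 295 of 9470 in the inhibitor library, 618 cells in all, among cells that had 300 or more detected genes and a mitochondrial share of UMIs of no more than 25%.

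Both libraries came from C57BL/6 mice recorded as 17 months old that had been on the CD-HFD diet for 15 months, so the diet was common to both groups. The control library is labelled control, with no vehicle or handling given, and the inhibitor library came from mice given a FABP5 inhibitor from month 13. FABP5 carries fatty acids within the cell. Tissue of the HCC region was dissociated with collagenase, and per the labels live cells were selected with an Annexin V kit, the fraction kept not being stated, before droplet 3′ sequencing (10x Genomics). How many mice stood behind each library was not stated. There was 1 library per group, so no difference between the libraries has a replicate check, no test was made, and every interval below is an exact 95% interval that covers counting error only.

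PD-1, the product of Pdcd1, is an inhibitory receptor that T cells carry after activation and keep under lasting antigen exposure. Lasting exposure in tumours and chronic infection drives a state called exhaustion, in which the nuclear factor Tox is raised together with further inhibitory receptors such as LAG-3 and TIM-3, and a small Tcf7-bearing fraction feeds a larger fraction that bears Havcr2, the gene of TIM-3. In fatty liver disease and liver tumours, CD8 T cells that carry PD-1 and the chemokine receptor CXCR6 are a well-known population of the diseased tissue.

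The members carried the markers of their label. Tox was at 367 CPM (counts scaled to a common total per cell group) in control members and 292 in inhibitor members, against 179 and 128 in the PD-1 negative CD8 T cells of the same libraries. Gzmk, which encodes a granzyme of memory-like CD8 T cells, was at 544 and 503 CPM against 463 and 323. Cxcr6 was at 667 and 380 CPM against 460 and 328. By CPM, each of the 3 markers that the rule did not use was thus higher in members than in PD-1 negative cells of either library. The difference was smaller for Gzmk in the control library and for Cxcr6 in the inhibitor library. A UMI of Tox, Cxcr6 and Gzmk together was found in 45.8% of control members (interval 40.3 to 51.4) and 28.8% of inhibitor members (23.7 to 34.3), against 19.0% and 12.7% of PD-1 negative cells. After each cell was thinned to 1500 UMIs these shares were 11.7% and 5.90% in members, and 5.96% and 2.63% in PD-1 negative cells. Thinned cells with none of the 3 were 11.7% and 21.9% of members, and 24.9% and 36.4% of PD-1 negative cells. Thinned shares overlapped in their intervals for Gzmk in the control library, at 50.5% of members and 47.3% of PD-1 negative cells. They also overlapped for Cxcr6 in the inhibitor library, at 36.5% and 34.1%. B cells, taken as the level that free RNA supplies, held a Tox UMI in 0.482% of 622 control cells at a median of 3220 UMIs, and a Gzmk UMI in 0 of those 622 cells, which allows a share of up to 0.482%. No test of exhaustion as a function was possible from RNA.

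The rule's gate on Pdcd1 sits at 1 UMI, so the group depends on depth. In the control library 187 members had 1 Pdcd1 UMI, 71 had 2, and 65 had 3 or more, next to 820 CD8 T cells with none that passed every other gate. The inhibitor library held 202, 66 and 27 members in those classes and 1415 cells with none. On the interferon gate, 10 and 5 members had exactly 2 UMIs, while 5 control cells and 1 inhibitor cell with 3 UMIs were left out. On the CD8 gate 12 and 13 members had 1 UMI and 80 and 54 cells with none were left out, and a single Csf1r UMI left out 5 and 12 cells. Median depth was 3855 UMIs in control members and 3510 in inhibitor members, and 6 and 7 members fell under 1500 UMIs. Cell barcodes were shared between the libraries in 29 cases, among them 2 control members and 1 inhibitor member. Doublets were not removed from the members, and their removal is one of the alternatives given further on.

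PD-1 positive cells were a smaller part of the CD8 T cells in the inhibitor library. They were 28.3% of 1143 gated CD8 T cells in the control library (interval 25.7 to 31.0) and 17.3% of 1710 in the inhibitor library (15.5 to 19.1), a ratio of 0.610 (0.520 to 0.717). All CD8 T cells passing the other gates were 16.7% and 18.1% of cells. Thinned to 1500 UMIs, 14.2% of 1112 control cells and 8.85% of 1684 inhibitor cells kept a Pdcd1 UMI, a ratio of 0.623 (0.494 to 0.784), with 31 and 26 shallower cells left out. In B cells the share was 0.482% and 0.275% with all UMIs, and thinned it was 1 of 610 cells and 0 of 357, which allows up to 0.840% in the latter. Foxp3-bearing T cells, most of them regulatory T cells, held a Pdcd1 UMI in 16.4% of 110 and 10.7% of 84 cells with all UMIs, and in 5.71% and 5.95% of thinned cells. With 6 and 5 thinned Foxp3 cells behind those shares, a difference like that of the CD8 T cells was not detectable at this depth.

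PD-1 negative cells with naive genes were more frequent in the inhibitor library. CD8 T cells with at least 2 UMIs over a short set of naive and central memory genes that includes Lef1 and Ccr7 were 19.3% of PD-1 negative cells in the control library and 31.5% in the inhibitor library. Without those negative cells the members were 32.8% (29.9 to 35.8) and 23.3% (21.0 to 25.8) of the rest, a ratio of 0.712 (0.606 to 0.836). The limit on interferon genes removed 44 PD-1 bearing cells from the control library and 10 from the inhibitor library. Of CD8 T cells over that limit, 38 of 238 in the control library and 9 of 36 in the inhibitor library had a Pdcd1 UMI. Fewer PD-1 positive cells and less Pdcd1 RNA per cell cannot be told apart from these shares.

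**Figure D1:**
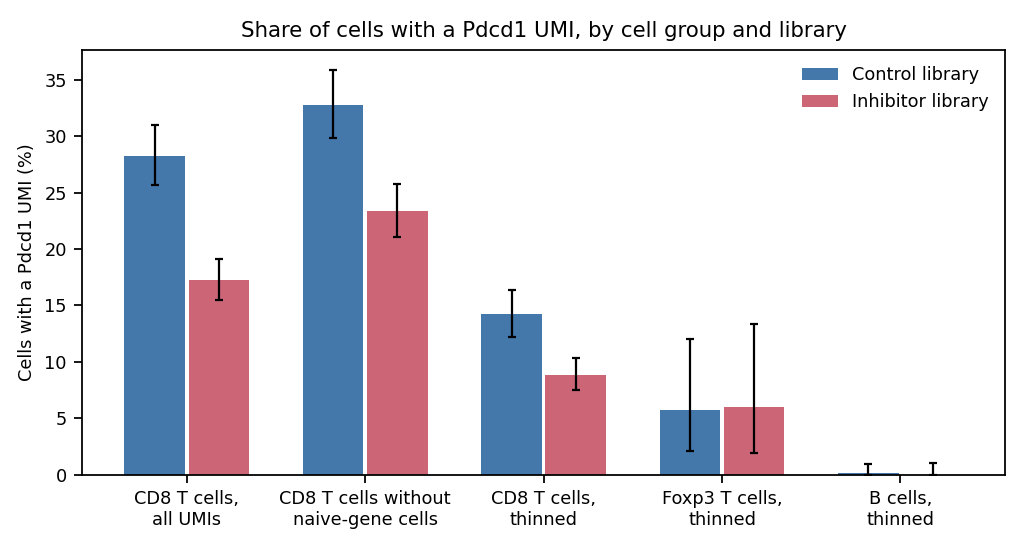
Bars give the percentage of cells with a Pdcd1 UMI in the control and inhibitor libraries for CD8 T cells that pass the other gates (all UMIs, without naive-gene PD-1 negative cells, and thinned to 1500 UMIs), Foxp3 T cells and B cells, with exact 95% intervals. The control bar stands above the inhibitor bar in all 3 CD8 groupings (28.3% against 17.3%, 32.8% against 23.3% and 14.2% against 8.85%), and B cells lie at or near 0.

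Within each library the members were set beside PD-1 negative CD8 T cells that had at most 1 UMI over that naive gene set, 662 control and 969 inhibitor cells. The rule chose the members on Pdcd1, so these values describe them and support nothing further. Of 8691 measured genes (at least 20 UMIs over both groups) in the control library, 10.7% were at least 1.5-fold higher and 9.72% at least 1.5-fold lower in members. In the inhibitor library the shares of 8891 genes were 10.1% and 9.17%. The median over all genes was a log2 ratio of 0.04 and 0.05.

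Part of the inhibitory receptors other than PD-1 was higher in the members. Of 14 measured receptor genes, 7 were at least 1.5-fold higher in each library, with 2 lower in the control and 1 in the inhibitor library. Lag3, an inhibitory receptor that binds MHC class II, was at 199 CPM in control members and 147 in inhibitor members, against 60.3 and 39.7 in PD-1 negative cells. The log2 ratios were 1.72 (1.44 to 2.01) and 1.89 (1.58 to 2.21). Havcr2 was at 53.5 and 53.0 CPM against 15.0 and 11.7, with log2 ratios of 1.84 and 2.18. Ctla4, which encodes a competitor of CD28 for its ligands, was at 149 and 136 CPM against 65.4 and 72.3. Entpd1, the gene of the ATP-degrading enzyme CD39, was at 43.0 and 61.7 CPM against 24.8 and 20.4. Members of both libraries lay above PD-1 negative cells for all 4 of these genes. Tigit was at 18.9 and 10.3 CPM against 10.6 and 5.60, on only 29 and 13 UMIs in members. Nt5e, the gene of the adenosine-forming enzyme CD73, was at least 1.5-fold lower in both libraries, at 11.7 and 11.9 CPM against 22.1 in either.

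Transcription regulators linked to exhaustion followed the same direction. Of 18 measured, 11 were higher and 1 lower in the control library and 10 were higher and 0 lower in the inhibitor library, with list medians of 0.73 and 0.72. Tox had log2 ratios of 1.04 (0.85 to 1.22) and 1.18 (0.99 to 1.38). Tox2, its paralog, was at 28.7 and 14.2 CPM against 8.67 and 2.80. Ikzf2, the gene of the zinc finger protein Helios, was at 233 and 184 CPM against 126 and 100.2. Nr4a2, a nuclear receptor induced by T cell receptor signals, was at 188 and 136 CPM against 81.1 and 72.3. Prdm1, Batf, Irf4, Nfatc1, Nr4a3 and Maf were also at least 1.5-fold higher in both libraries. Eomes and Tbx21, the T-box factors of effector and memory CD8 cells, were not: Eomes had log2 ratios of 0.05 and 0.53, and Tbx21 of -0.09 and -0.13. A Tox UMI was found in 71.5% and 62.0% of members, or 39.1% and 36.5% after thinning.

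Ccl3 and Ccl4 were among the named genes highest in the members. Of 15 cytokine and chemokine genes measured in the control library, 8 were at least 1.5-fold higher and 2 lower, with a median log2 ratio of 0.61. For 1 of those 8 all 22 UMIs of the members came from a single cell. Of 14 in the inhibitor library, 6 were higher and 2 lower, with a median of 0.24. Spp1 and Cxcl10 among those 6 rested largely on single inhibitor members, which held 148 of 215 and 22 of 32 UMIs. By the rule for named genes, the 12 highest in members of both libraries were Ccl3, Coch, Ccl4, Lag3, Havcr2, Tnfrsf9, Rgs16, Izumo1r, Plscr1, Tox, Top2a and Stmn1. Ccl3 and Ccl4 encode related inflammatory chemokines that attract leukocytes. Ccl3 was at 959 and 823 CPM in members against 165 and 143, a log2 ratio of 2.54 (2.38 to 2.70) and 2.52 (2.37 to 2.67). Ccl4 was at 2275 and 2556 CPM against 701 and 665, a log2 ratio of 1.70 and 1.94. Tnfrsf9, which encodes the costimulatory receptor 4-1BB, was at 80.9 and 44.3 CPM against 19.7 and 13.7. Rgs16, a brake on chemokine receptor signals, was at 143 and 75.9 CPM against 49.6 and 28.2. The level in members exceeded that in PD-1 negative cells of either library for each of these genes. Ccl3 was found in 159 control and 120 inhibitor members, and the 5 members with most of it held 41.7% and 42.0% of its UMIs, so its level rests on a part of the members.

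Some genes of memory, circulating and resident cells were lower in members. The circulation genes Klf2 and S1pr1 were at least 1.5-fold lower in the control library only. The 12 lowest named genes were Ly6c2, Il7r, Itga1, Jaml, Klhl6, Emb, Slco3a1, Gramd3, Dnajc15, Arl4c, Neurl3 and Zfp36l2. Il7r, the receptor for the survival cytokine IL-7, was at 95.2 and 137 CPM in members against 266 and 310, a log2 ratio of -1.48 (-1.75 to -1.22) and -1.18 (-1.42 to -0.95). Ly6c2, a surface protein of memory CD8 cells, was at 91.3 and 186 CPM against 404 and 663. Itga1, the collagen-binding integrin chain of resident cells, was at 26.1 and 18.2 CPM against 68.9 and 57.5. Tcf7 was at 65.9 and 53.0 CPM against 102 and 86.0. The memory and naive list had 6 genes higher and 8 lower of 17 in the control library and 2 higher and 6 lower of 17 in the inhibitor library. Cells rich in the naive gene set had been taken out of the negative group only, where 9 control and 15 inhibitor members would have met the same limit, so the genes of that set are not comparable here. With such members left out as well, the medians of that list were -0.90 and -0.72, against -0.56 and -0.34.

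**Figure D2:**
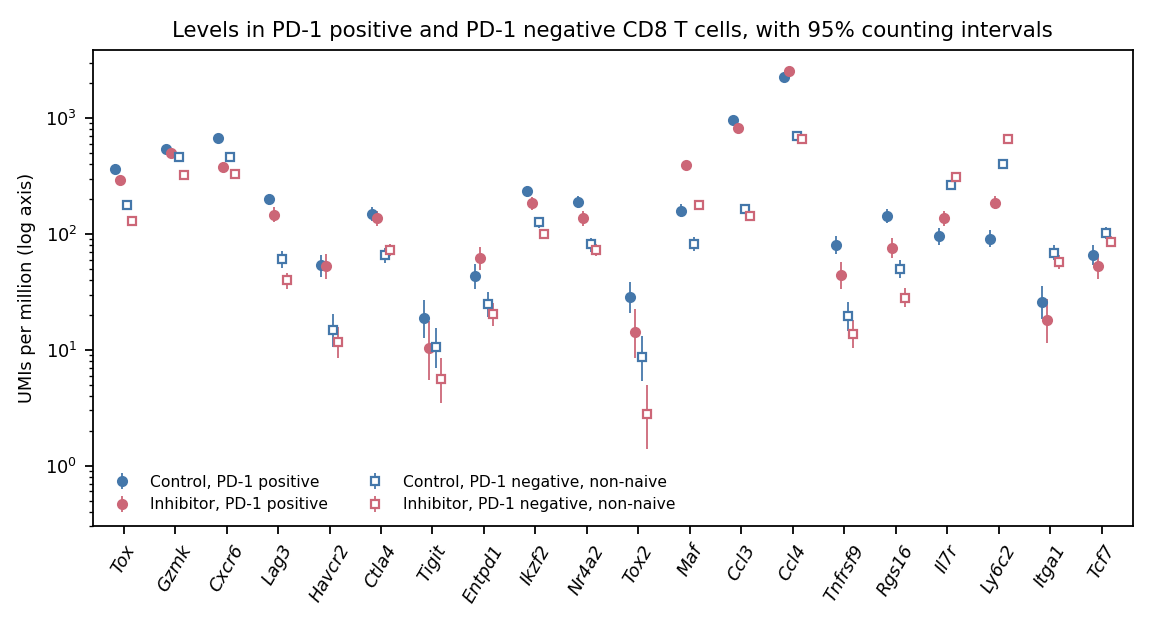
Points give CPM on a log axis for 20 genes in PD-1 positive cells (filled circles) and PD-1 negative, non-naive cells (open squares) of the control and inhibitor libraries, with exact 95% counting intervals. Filled circles lie above open squares of the same library for every gene from Tox to Rgs16, as for Lag3 at 199 against 60.3, and below them for Il7r, Ly6c2, Itga1 and Tcf7.

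Effector genes differed less. Of 16 cytotoxic genes, 4 were higher and 1 lower in the control library, and 2 higher and 1 lower in the inhibitor library. Prf1, the pore-forming protein of cytotoxic granules, was at 166 and 216 CPM in members against 108 and 145. Gzmb, the granule protease granzyme B, was at 538 and 822 CPM against 462 and 647. Gzmm was the gene lower in both libraries, at 5.22 and 15.0 CPM against 20.1 and 46.1. Ifng, the gene of interferon gamma, was at 226 and 212 CPM in members against 128 and 207, so that its log2 ratio was 0.82 (0.60 to 1.04) in the control library and 0.04 (-0.17 to 0.24) in the inhibitor library. Among 18 genes of the T cell receptor pathway the same 3, Ptpn11, Ubash3b and Cblb, were at least 1.5-fold higher in each library and 0 were lower. Ptpn11 encodes the phosphatase SHP-2 that binds PD-1, Ubash3b a suppressor of receptor signals, and Cblb a ubiquitin ligase that restrains T cell activation. MHC class I genes were within 1.5-fold throughout, with 0 of 12 past it in either direction in both libraries.

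Cell cycle genes were higher in the members. Of 24 genes, 23 were at least 1.5-fold higher in the control library and 20 in the inhibitor library, with 0 lower and medians of 1.90 and 1.09. Mki67, a marker of dividing cells, was at 109 and 67.2 CPM in members against 28.0 and 27.5. Cells with at least 2 UMIs over Mki67, Top2a, Birc5, Cdk1, Ccnb2 and Cenpf were 28 of 323 control members (8.67%, interval 5.84 to 12.3) and 22 of 295 inhibitor members (7.46%, 4.73 to 11.1). They were 3.32% and 3.20% of PD-1 negative cells. Thinned, the shares were 5.36% and 4.17% of members against 0.940% and 2.00%. Dividing members were deep, with a median of 9003 UMIs against 3683 in the other control members and 9480 against 3340 in the inhibitor library. They held 2 or more Pdcd1 UMIs in 67.9% against 39.7% of the other control members, and in 45.5% against 30.4% in the inhibitor library. The part of depth in the cell cycle difference was not tested. With the gate applied after thinning the list median was 0.36 in the control library and 1.11 in the inhibitor library, and without the dividing cells it was 0.22 and 0.26. The dividing cells were chosen on 6 genes of this list, so leaving them out lowers its median by construction.

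The members were not uniform. A Tcf7 UMI was found in 16.4% of control members (12.5 to 20.9) and 13.2% of inhibitor members, and a Havcr2 UMI in 18.6% (14.5 to 23.3) and 16.9%. Both were found together in 1 of 323 control members and 4 of 295 inhibitor members, and in 0 of 317 and 0 of 288 thinned members, which allows up to 0.946% and 1.04%. Thinned shares were 7.57% and 5.90% for Tcf7 and 6.62% and 6.6% for Havcr2. In B cells of the control library the unthinned shares were 0.643% for Tcf7 and 0.482% for Havcr2. Members with neither gene were 65.3% and 71.2%, so most members could not be placed by these 2 genes at this depth.

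Members with Tcf7 and members with Havcr2 differed in the genes around them. Control members with Tcf7 and no Havcr2, 52 cells, had Il7r at 210 CPM, Slamf6 at 231 CPM, Id3 at 224 CPM and Xcl1 at 969 CPM. The 59 control members with Havcr2 and no Tcf7 had 5.87, 58.7, 2.94 and 147 CPM of the same genes. One control member held 28 of the 65 Id3 UMIs of the Tcf7 group, and without it Id3 was at 142 CPM there. Slamf6, Id3 and Xcl1 are known markers of the Tcf7-bearing fraction of exhausted cells. In the other direction, Lag3 was at 44.8 CPM with Tcf7 and 411 with Havcr2, Gzmb at 51.7 and 992, Ccl3 at 128 and 2537, and Ccl4 at 703 and 4669. The 35 and 46 inhibitor members gave the same order for Lag3 at 35.4 and 313, Gzmb at 238 and 1649, Ccl3 at 162 and 1175, and Il7r at 329 and 22.3. Xcl1 was at 147 CPM in inhibitor members with Tcf7, and those with Havcr2 had no Xcl1 UMI. The 2 kinds of member were thus apart in both libraries for Lag3, Gzmb, Ccl3 and Il7r. Not every receptor separated them: Cd160 was at 179 and 141 CPM in the control library and 70.8 and 58.1 in the inhibitor library, with overlapping intervals, and those of Tigit overlapped too.

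**Figure D3:**
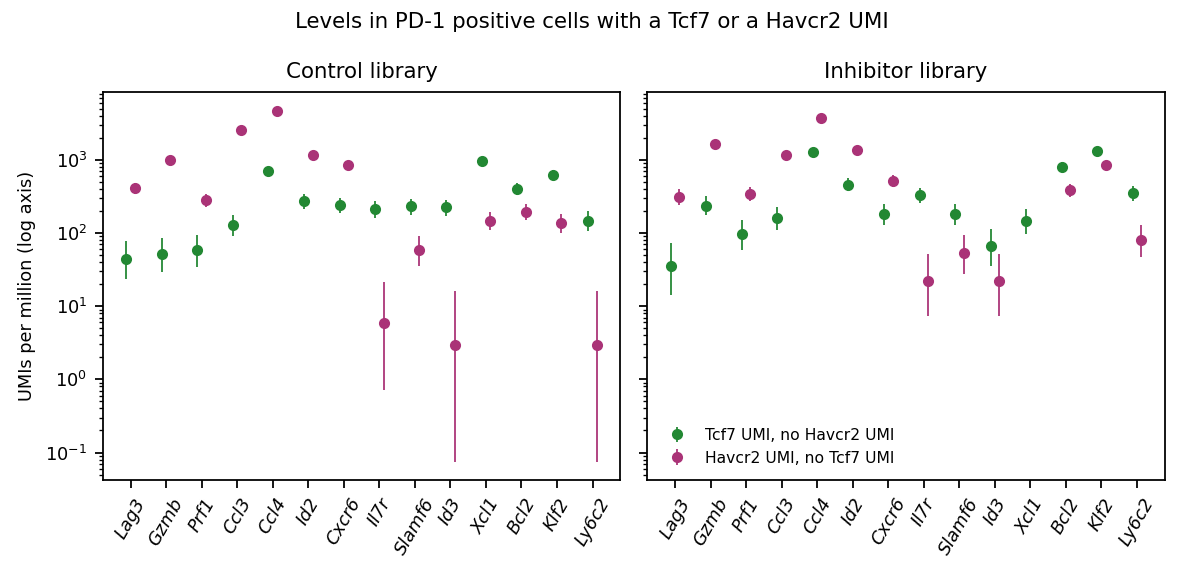
Points give CPM on a log axis in members with a Tcf7 UMI and no Havcr2 UMI, and in members with a Havcr2 UMI and no Tcf7 UMI, for each library, with exact 95% counting intervals. A gene without any UMI in a group, as Xcl1 in inhibitor members with Havcr2, has no point, and Lag3, Gzmb, Ccl3 and Ccl4 are high in the Havcr2 group while Il7r and Slamf6 are high in the Tcf7 group, as is Id3 in the control library, with overlapping intervals in the inhibitor library.

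Some of these genes also differed with the number of Pdcd1 UMIs. From members with 1 Pdcd1 UMI to those with 3 or more, Lag3 went from 117 to 334 CPM in the control library and from 104 to 254 in the inhibitor library. Ly6c2 went from 146 to 20.9 CPM and from 213 to 119. Il7r went from 134 to 30.2 CPM and from 154 to 102, and the intervals of the inhibitor library (128 to 183 and 60.2 to 161) overlapped. Genes of the Tcf7 group did not all go down. In the inhibitor library Tcf7 went from 54.6 to 79.0 CPM and Slamf6 from 57.1 to 79.0, with overlapping intervals, and Xcl1 from 95.5 to 265. In the control library Xcl1 went from 775 to 325 CPM, and Id3 from 56.6 to 71.9 with overlapping intervals. Members with 3 or more Pdcd1 UMIs were also deeper, with medians of 5246 and 5076 UMIs against 3611 and 3270, and the part of depth in these differences was not tested.

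Granzymes K and B were in part found in the same cells. Both had a UMI in 43.7% of control and 50.2% of inhibitor members, Gzmk alone in 36.2% and 24.7%, and Gzmb alone in 5.26% (3.10 to 8.29) and 14.6% (10.7 to 19.1). Thinned, both were found in 20.2% and 26.7%, Gzmb alone in 13.2% and 24.3% and Gzmk alone in 30.3% and 20.1%. Gzmb-only members thus took a larger share in the inhibitor library by either count. PD-1 negative cells went the same way, with Gzmb alone in 10.4% and 18.8%, or 14.3% and 21.6% after thinning. The larger Gzmb-only share was thus not particular to the members. T cell receptor beta variable genes were detected in only 35 control and 22 inhibitor members. Among cells with a single such gene, Trbv12-2 was found in 9 of 34 control members and in 12 of 63 control PD-1 negative cells, and the intervals of 12.9 to 44.4% and 10.2 to 30.9% overlapped.

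Between the libraries, 8.97% of 7823 measured genes were at least 1.5-fold higher and 9.52% at least 1.5-fold lower in inhibitor members than in control members, with a median log2 ratio of 0.01. In PD-1 negative non-naive cells 6.62% were higher and 8.8% lower of 9312 genes. The named genes that were higher in inhibitor members were Klf2, Ly6a, Tnfrsf4, Klf3, Maf, S100a4, Car5b, Arl5c, Csrnp1, Serpinb9, Panx1 and Cx3cr1.

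Klf2 and some of the homing genes were higher in inhibitor members. Klf2, the factor that maintains the exit receptor S1pr1 and is low in resident cells, was at 342 CPM in control members and 1231 in inhibitor members, a log2 ratio of 1.85 (1.70 to 1.99). A Klf2 UMI was found in 34.4% and 69.8% of members, or 22.7% and 56.9% after thinning. PD-1 negative cells went from 761 to 1543 CPM, a log2 ratio of 1.02 (0.95 to 1.10). Klf2 was thus higher in the inhibitor library in both kinds of CD8 T cell, with control members the lowest of the 4 groups. B cells, which express Klf2 themselves, had it in 79.3% and 84.6% of thinned cells, so the B cell share is no background for this gene.

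S1pr1, Ccr2 and Cx3cr1 were also higher in inhibitor members. S1pr1 was at 28.7 and 66.4 CPM, a log2 ratio of 1.21 (0.67 to 1.77), although its thinned shares of 5.05% and 6.25% had overlapping intervals. Ccr2, a receptor for monocyte-attracting chemokines, was at 36.5 and 119 CPM, a log2 ratio of 1.71 (1.26 to 2.18). Its thinned shares of 4.42% and 9.03% had overlapping intervals. Thinned B cells, taken as the level of free RNA, held a Ccr2 UMI in 0.820% and 2.80%, also with overlapping intervals. The part of free RNA in the Ccr2 difference was not tested. In PD-1 negative cells Ccr2 was at 99.7 and 107 CPM, a log2 ratio of 0.11 (-0.12 to 0.34). Cx3cr1, the fractalkine receptor of effector cells in blood, was at 12.4 and 38.8 CPM, and Ly6c2 at 91.3 and 186. In PD-1 negative cells S1pr1 was at 53.6 and 89.8 CPM, Cx3cr1 at 8.27 and 29.8 and Ly6c2 at 404 and 663, log2 ratios of 0.75, 1.85 and 0.71, so these 3 were also higher there. Ly6a, the gene of Sca-1, was at 78.9 and 288 CPM in members with a log2 ratio of 1.87 (1.57 to 2.18), and at 262 and 277 CPM in PD-1 negative cells. Control members had less Ly6a and Ccr2 than the other 3 groups, and the difference between the 2 log2 ratios was not tested. Of 21 homing and residency genes, 7 were higher, 2 lower and 12 within 1.5-fold in inhibitor members, and of 18 memory and naive genes, 8 were higher and 3 lower. Ccr7 counts among the higher ones, at 9 and 48 UMIs, but 1 inhibitor member held 38 of the 48.

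Cxcr6, Xcl1, Cd160, Id3 and Rgs16 were lower in inhibitor members. Cxcr6 was at 667 CPM in control members and 380 in inhibitor members, a log2 ratio of -0.81 (-0.97 to -0.65), and was found in 79.9% and 59.7% of members, or 58.4% and 36.5% after thinning. PD-1 negative cells had 460 and 328 CPM, a log2 ratio of -0.49 (-0.60 to -0.37). Xcl1, the chemokine that attracts cross-presenting dendritic cells, was at 575 and 117 CPM in members, a log2 ratio of -2.30 (-2.56 to -2.04), and was found in 41.2% and 15.3%. In PD-1 negative cells it was at 376 and 167 CPM. Cd160, the gene of a receptor for HVEM on killer cells and CD8 T cells, was at 202 and 98.1 CPM, found in 45.5% and 25.1% of members. Id3 was at 52.8 and 17.4 CPM, but 1 control member held 28 of the 81 control UMIs, and without it the control level was 35.2 CPM. Rgs16 was at 143 and 75.9 CPM. Among other genes of resident or early exhausted cells, 3 were within 1.5-fold, with Cd69 at 189 and 205 CPM, Rgs1 at 925 and 870 and Tcf7 at 65.9 and 53.0. Not all such genes were: Tox2 was at least 1.5-fold lower, at 44 and 18 UMIs. The memory and naive list had 3 genes lower, Xcl1 and Id3 among them.

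Of 13 measured inhibitory receptor genes, 9 were within 1.5-fold between the libraries. Lag3, and Pdcd1 outside that count, were lower with intervals below 0. Havcr2 had a log2 ratio of -0.01 (-0.50 to 0.47), Ctla4 of -0.13 (-0.42 to 0.16), and Pdcd1 itself, which the rule used, of -0.25 (-0.43 to -0.07). Lag3 was at 199 and 147 CPM, a log2 ratio of -0.44 (-0.71 to -0.17), and Tox at 367 and 292, a log2 ratio of -0.33 (-0.52 to -0.14). Of 13 measured inhibitory receptor genes, Klrg1 was at least 1.5-fold higher and Cd160, Tigit and Cd200r1 at least 1.5-fold lower. In PD-1 negative cells, of 14 measured, Klrg1 was likewise higher, and Lag3, Tigit and Cd200r1 were at least 1.5-fold lower. The shifts of Klrg1, Tigit and Cd200r1 were thus not particular to the members. Of 18 exhaustion regulators, Maf and Nr4a1 were higher and Tox2 and Rbpj lower. Those regulator counts lie near the shares over all 7823 measured genes, 8.97% higher and 9.52% lower. Neither the regulator list nor the receptor list was tested. In PD-1 negative cells Maf, Irf4 and Nr4a1 were higher and Tox2 lower of the same 18 regulators. Maf, a factor of Il10-producing and exhausted T cells, was at 159 and 391 CPM in members, a log2 ratio of 1.30 (1.07 to 1.52), and at 82.3 and 177 CPM in PD-1 negative cells. It was higher in the inhibitor library in both kinds of cell and higher in members in both libraries. Tbx21 and Eomes had log2 ratios of 0.09 (-0.48 to 0.66) and -0.05 (-0.34 to 0.24).

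Costimulatory and cytotoxic genes moved in part. Tnfrsf4, which encodes OX40, was at 39.1 and 143 CPM, a log2 ratio of 1.87 (1.44 to 2.32), and was found in 8.36% and 17.3% of members. Icos was at 67.8 and 127 CPM. Tnfrsf9, in contrast, was at 80.9 and 44.3 CPM, a log2 ratio of -0.87 (-1.35 to -0.40). The 11 costimulatory genes had 2 higher and 3 lower. Gzmb was at 538 and 822 CPM, a log2 ratio of 0.61 (0.48 to 0.74), with thinned shares of 33.4% and 51.0% of members. Serpinb9, which shields the cell from its own granzyme B, was at 50.9 and 123 CPM. Of 16 cytotoxic genes, Gzmb, Gzmm and Serpinb9 were higher and 0 were lower. Over all 7823 measured genes 8.97% were higher and 9.52% lower, and neither the costimulatory nor the cytotoxic list was tested. Ccl4 and Ccl5, made in quantity by these cells, were within 1.5-fold, at 2275 and 2556 CPM and at 25519 and 31117 CPM.

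**Figure D4:**
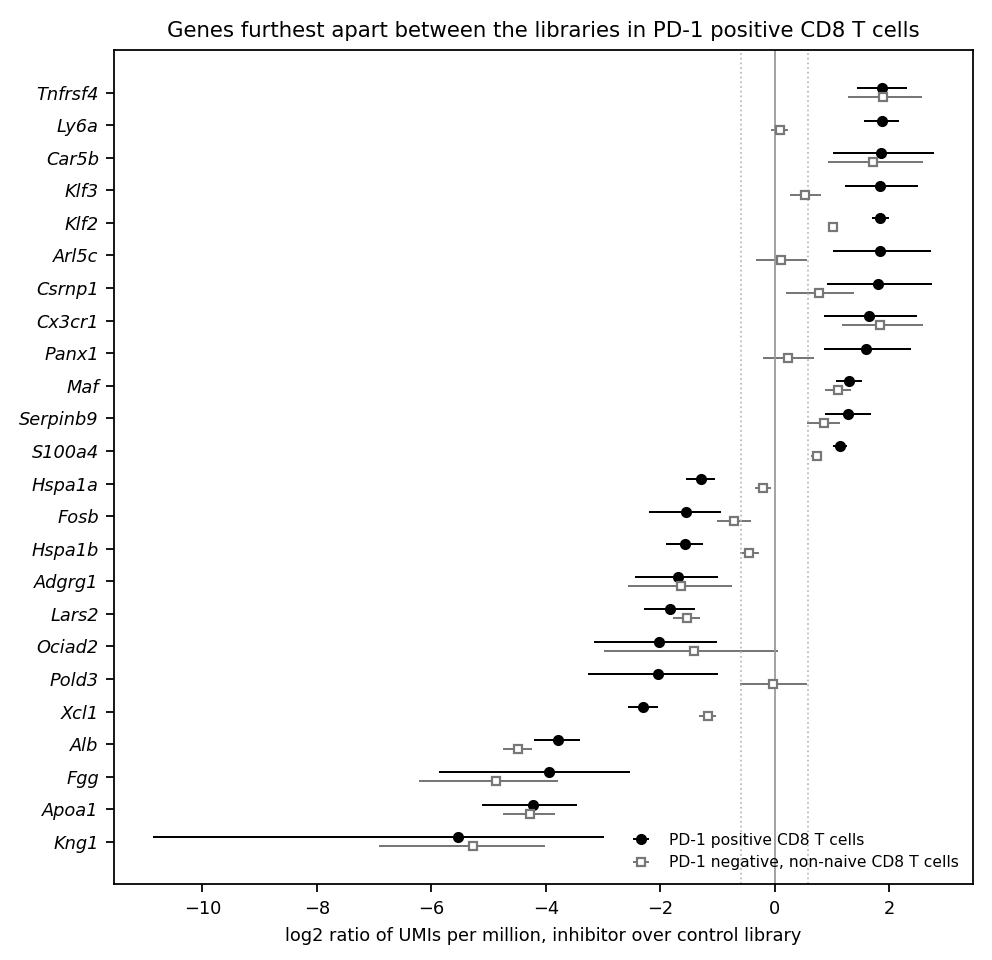
Points give the log2 ratio of CPM, inhibitor over control library, for the 12 highest and 12 lowest genes of the members, in PD-1 positive cells (black circles) and PD-1 negative, non-naive cells (open squares), with exact 95% counting intervals and dotted lines at 1.5-fold. Ly6a stands at 1.87 in members and 0.08 in PD-1 negative cells, while Tnfrsf4 stands at 1.87 and 1.90, and the hepatocyte gene Alb lies at -3.79 and -4.49.

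Hepatocyte RNA differed between the libraries in every cell group. The named genes lower in inhibitor members were Apoa1, Alb, Kng1, Fgg, Xcl1, Lars2, Hspa1b, Hspa1a, Ociad2, Adgrg1, Pold3 and Fosb, and the first 4 are secreted proteins of hepatocytes. All 15 measured hepatocyte markers were lower in inhibitor members, and all 15 were lower in PD-1 negative cells. Their summed level was 1420 CPM in control members and 175 in inhibitor members, 1743 and 142 in PD-1 negative cells, and 1351 and 373 in B cells. At least 3 UMIs of the list were found in 67.2% of control members and 3.05% of inhibitor members, and 0 of 16 list genes were at 0 in control members and Mup3 alone in inhibitor members. The part of this RNA in other differences between the libraries was not tested. Haemoglobin and haem genes were at 3499 and 327 CPM in members, but 1 control member held 3212 of the 5365 control UMIs, and without it the control level was 1417 CPM. Of the 56 Alb UMIs of inhibitor members, 1 member held 32.

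Markers of other leukocytes were present at levels that differed by list. The macrophage list summed to 558 and 486 CPM, against 18236 and 30003 over all kept cells, with Lyz2 at 32.6 and 146 CPM, Apoe at 335 and 49.8 CPM, and Csf1r at 0 by the rule. The B cell list summed to 361 and 183 CPM, mostly Igkc at 278 and 127 CPM, with Ms4a1 and Pax5 at 0 in both libraries. The regulatory T cell list, which shares Ctla4, Ikzf2 and Tnfrsf4 with activated CD8 cells, summed to 429 and 480 CPM. NK cell genes summed to 1533 and 1360 CPM, with Klra8 and Klra4 at 0. Others were not low: Klre1 was found in 114 control and 75 inhibitor members, and Gzma in 63 and 57. Of 6 measured in the control library, Klre1 and Gzma were at least 1.5-fold higher and Fcer1g lower than in PD-1 negative cells. Of 9 in the inhibitor library, Ncr1 was higher and Klra8 lower. The 15 Ncr1 UMIs of inhibitor members came from 2 cells, and with Klra8 at 0 its ratio is only a bound. Trdc, the constant chain of gamma delta T cells, had 15 UMIs in control members, 14 of them in 1 cell, and 1 in inhibitor members. The dendritic cell list summed to 288 and 441 CPM with Flt3 at 0, the gamma delta list to 391 and 288 CPM, the neutrophil list to 259 and 263 CPM, and the stromal list to 231 and 192 CPM, mostly Spp1. Single members held much of this: without the member with most UMIs of the list in each library, the dendritic list was at 197 and 178 CPM, the neutrophil list at 29.5 and 117 and the stromal list at 183 and 75.5. The part of such RNA in the differences between the libraries was not tested.

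Stress and immediate early genes differed gene by gene. Hspa1a and Hspa1b, near-identical heat shock genes between which reads may be split, were at 357 and 146 CPM and at 244 and 82.3 CPM. Fosb was at 67.2 and 22.9 CPM, Jun at 268 and 128, and Fos at 153 and 91.0. Nr4a1 was at 13.0 and 55.4 CPM, Nfkbia at 155 and 282, and Myc at 19.6 and 38.8. The list of 17 immediate early genes thus had 7 higher and 3 lower, with AP-1 genes among the lower and Nr4a1, Nfkbia and Myc among the higher. Tissue digestion can induce this class of gene, and its part was not tested.

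With the rule's limit on interferon genes in place, type I interferon genes outside the gate differed in PD-1 negative cells more than in members. In members 0 of 18 were at least 1.5-fold higher and 1, Isg20, was lower, with a median of -0.09. In PD-1 negative non-naive cells 0 were higher and 14 of 22 were lower, with a median of -0.83. Isg15, a ubiquitin-like interferon target, was at 67.8 and 75.1 CPM in members and at 128 and 51.1 CPM in PD-1 negative cells. Irf7, a factor that amplifies interferon responses, was at 46 and 53 UMIs in members, a log2 ratio of 0.48 (-0.11 to 1.08). In PD-1 negative cells it was at 106 and 54.7 CPM, a log2 ratio of -0.95 (-1.22 to -0.69). Control PD-1 negative cells stood above the other 3 groups for both genes. The difference between the 2 kinds of cell was not tested. The rule caps 4 interferon genes in all of these cells, and without that limit the median in members was -0.62. The median between libraries in PD-1 negative cells was not computed without it, so the contrast of the 2 kinds of cell holds only under the limit.

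Fabp5, the gene of the inhibitor's target, differed little between the libraries. It was at 45.7 and 53.8 CPM in members, a log2 ratio of 0.24 (-0.27 to 0.74), on 70 and 68 UMIs, and at 21.3 and 17.0 CPM in PD-1 negative cells. It was thus higher in members than in PD-1 negative cells in both libraries, with log2 ratios of 1.10 (0.57 to 1.64) and 1.66 (1.15 to 2.17). Of 15 measured fatty acid genes, Plin2 and Fabp1 were higher and Slc27a4 lower in inhibitor members. Plin2, the coat protein of lipid droplets, was at 17.6 and 30.8 CPM. The glucose transporter genes Slc2a1 and Slc2a3 were at 7.83 and 23.7 CPM and at 22.8 and 41.9 CPM, and 4 of 16 glycolysis and hypoxia genes were higher with 0 lower. Among 23 nuclear respiratory chain genes 0 were past 1.5-fold in either direction. Of 15 apoptosis genes 3 were higher and 2 lower, of 15 interferon gamma targets 3 were higher and 0 lower, of 16 iron and redox genes 4 were higher and 0 lower, and of 10 cholesterol genes 1 was higher and 0 lower. Over all 7823 measured genes 8.97% were higher and 9.52% lower. Lists of this size would hold some such genes at those shares. The fatty acid, glycolysis, apoptosis, interferon gamma, iron and redox, and cholesterol counts alone thus do not set those lists apart, and no list was tested. Cell cycle genes had 0 higher and 7 lower of 24, with a median of -0.28, and the leading one, Ube2c, at 315 and 113 UMIs, came from 16 control and 12 inhibitor members.

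**Figure D5:**
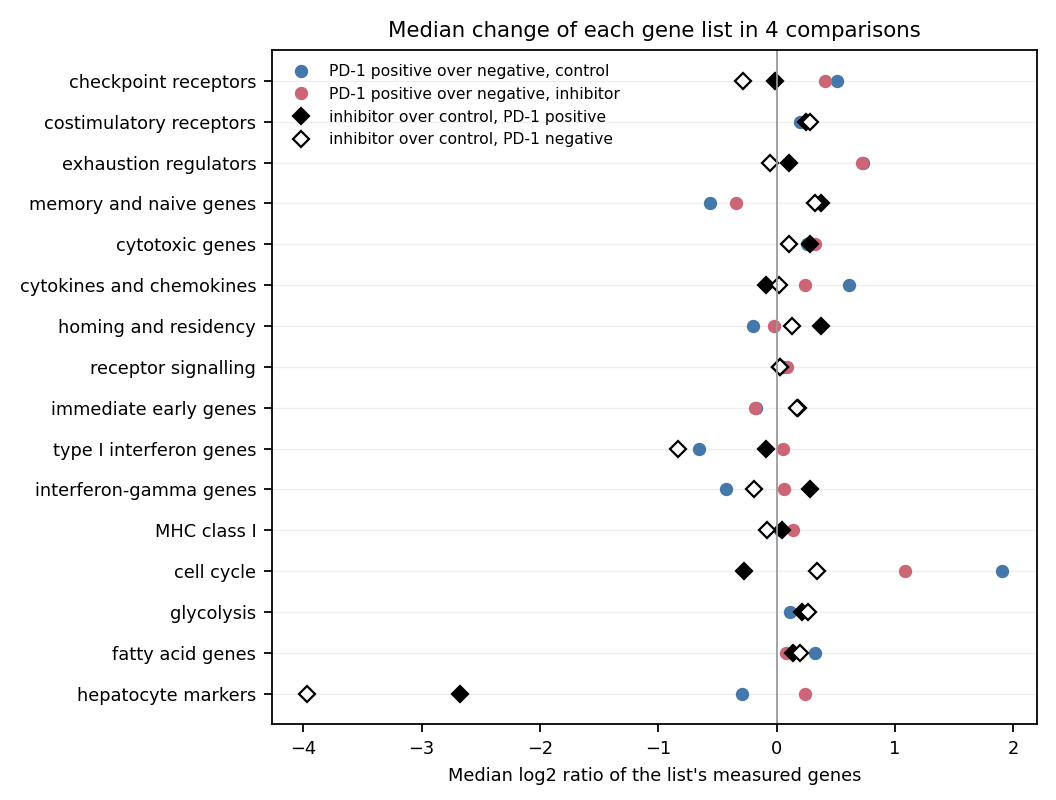
Points give the median log2 ratio of the measured genes of 16 lists for members over PD-1 negative, non-naive cells in each library (circles) and for inhibitor over control in members and in PD-1 negative cells (diamonds). Exhaustion regulators (0.73 and 0.72) and cell cycle genes (1.90 and 1.09) lie to the right for members over negative cells, and hepatocyte markers lie far to the left for inhibitor over control in both kinds of cell.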

How the data were processed

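Droplet single-cell RNA sequencing gave 1 control and 1 inhibitor library. The deposited values are raw UMI counts per gene and barcode (31053 features), written by Cell Ranger 5.0.1 per the file headers, while the submitters' processing notes name Cell Ranger, R 3.0, Seurat 3 and the build mm9. No coordinates were used. The members and gene lists were chosen with earlier results of these data known, and so were the markers. UMIs were summed over each cell group and library and given as CPM with exact Poisson intervals, shares with exact Clopper-Pearson intervals, and ratios with exact conditional binomial intervals, all at 95%. A gene was measured at 20 or more UMIs over both groups, and a difference was counted at 1.5-fold. Against a group with no UMI, 3 UMIs over that group stood in as the floor. Where no cell of a group held a gene, the share that this allows was set at 3 cells over the group. That limit lies below the exact 95% upper bound, as 0.946% against 1.16% for Tcf7 with Havcr2 in thinned control members. Named genes were the 12 highest and 12 lowest by the interval bound nearest to 1. They needed at least 50 UMIs, a UMI in at least 10% of cells and, in the group with more, a CPM of at least 25% of that over the remaining cells of its library. For members over PD-1 negative cells the direction had to be the same in both libraries. The rule's own genes, antigen receptor and haemoglobin genes, mitochondrial and ribosomal protein genes, and Gm and Rik names were not eligible. Genes of the lists are named in addition, among them those furthest apart and the most abundant. B cells had 2 or more Cd79a UMIs and no Cd3 or Csf1r UMI, and Foxp3 T cells at least 2 Cd3 UMIs, a Foxp3 UMI and no CD8 UMI. Doublets, scored against simulated doublets, were removed only in an alternative, which took out 374 control cells (5.47%) and 717 inhibitor cells (7.57%). Of 490 list genes, 487 were found by symbol. The rule's genes were left out of list counts. The ratio code was tested on simulated data. Python 3.11.15, numpy 2.4.6, scipy 1.17.1, pandas 2.3.3 and scikit-learn 1.9.0 were used. Alternatives covered the gates, doublets, thinning, other cell types' UMIs, scaling, count minimums, the fold and the comparison group. Some genes of the lists and of the naive gene set are not reported here by name.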

Additional observations from a re-analysis of the deposited data

Results flagged for a closer look

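For 5 genes the inhibitor over control ratio was at least 1.5-fold, with an interval away from 0 on the log2 scale, in opposite directions in PD-1 positive and PD-1 negative CD8 T cells, with 1 library per group, and the difference between the ratios was not tested. Nusap1 stood at -0.74 and 0.60 and Ube2c at -1.20 and 0.64, both cell cycle genes; their UMIs came from 18 control and 18 inhibitor members for Nusap1 and from 16 and 12 for Ube2c. Cxcl10, a chemokine induced by interferon, stood at 0.89 and -1.59, and 1 inhibitor member held 22 of its 32 UMIs. Klra3, of a family of near-identical receptor genes between which reads may be split, stood at -2.99 against the 3-UMI floor and 0.92, with 29 UMIs in 11 control members and 0 in inhibitor members. Cd74, of the MHC class II pathway, stood at 1.08 and -0.84, and 1 inhibitor member held 237 of its 376 UMIs.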

How the results depend on the processing

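No paired analysis was possible because each group had 1 library. Of 141 recomputed values for the shares and for the counts of genes past the fold, 112 moved by less than their interval or 1.5 times and 29 moved further; the cause was not tested except where the alternative itself changes the number of cells or genes. With at least 2 Pdcd1 UMIs there were 136 and 93 members, 11.9% and 5.44% of gated CD8 T cells, a log2 ratio of -1.13 against -0.71. That setting gave 14.1% of genes higher in inhibitor members, 16.4% lower in control members than in PD-1 negative cells, and 16.6% higher and 14.7% lower in the inhibitor library. With the gate applied after thinning there were 141 and 142 members, 13.9% and 10.4%, a log2 ratio of -0.43, with 15.3% and 14.8% of genes lower in members, and Top2a reversed to -0.59 in the control library. Leaving out cells with other cell types' UMIs kept only 25 and 130 members, with 23.5% of genes higher in inhibitor members and 17.2% higher in control members than in PD-1 negative cells; there Havcr2 reversed to -1.05 and Neurl3 to 0.48 in the control library, and Stmn1 to -0.41 in the inhibitor library. Arl5c and Panx1 between libraries were then both at 0.05. Of 1056 values of named genes, 911 stayed within their interval, 141 moved further and 4 reversed; of 1447 list medians, 160 moved by 0.25 or more and 6 reversed. At 50 UMIs per gene, 5.65%, 6.34% and 5.78% were lower in the between-library, control and inhibitor comparisons. At 2-fold, 2.48% were higher and 3.46% lower between libraries, 3.62% and 3.43% in the control library, and 3.01% and 3.51% in the inhibitor library. List medians reversed for neutrophil markers, to 0.32 at a mitochondrial limit of 10% and 0.87 at 50 UMIs in the control library and 0.11 without doublets in the inhibitor library. Those of gamma delta markers reversed to 0.38 without doublets in the control library, and to -0.48 at 10 UMIs and -0.15 against all PD-1 negative cells in the inhibitor library. The cell cycle median between libraries was 0.32 with the gate applied after thinning, against -0.28. Leaving out naive-gene members, dividing members or the member with most UMIs of a gene or list was chosen after seeing the data.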
